A study of Mus musculus with 20 samples.

Results

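Editing of the Gla and Rragd transcripts was measured in mouse embryonic fibroblasts (MEFs), connective tissue cells grown from mouse embryos. All rows of the editing tables that name Gla or Rragd were taken, and a site was kept if it had at least 50 reads in both libraries of at least 1 group. This gave 125 sites, 71 of the 71 listed for Gla and 54 of the 56 listed for Rragd, out of 9065 sites that met the same read minimum among the 48425 listed. Reads alone decided which sites were kept. The member with the fewest reads had at least 115 reads in both libraries of its best covered group in Gla and 61 in Rragd, and the 2 Rragd sites left out, both intronic, had 0 reads. The pair of genes was put forward with editing results of these libraries in view, so that the levels describe these genes and their tests are not independent support for the choice.

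The cells came from 5 lines, labelled ADAR1_WT (wild type at ADAR1, called wild type below), ADAR1_NULL, P150_KO, ADAR2_NULL and STAT2_NULL. Each line was sampled untreated (UNT) and after interferon (IFN), so that 20 libraries fall into 10 groups of 2. Each genotype is represented by 1 line, so the genotype cannot be told apart from other differences between lines, and the labels give neither the kind of interferon nor its dose or time. Amplicons of chosen loci were made by reverse transcription and PCR, and the reads covering each known site and the reads with the edited base were counted.

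Adenosine deaminases acting on RNA (ADARs) change adenosine into inosine within RNA duplexes, and inosine is read as guanosine in cDNA. ADAR1 is made as a constitutive, mainly nuclear p110 form and as a p150 form that interferon induces and that also works in the cytoplasm, whereas ADAR2 is a separate enzyme encoded by Adarb1. STAT2 is part of the transcription factor complex that type I interferon activates. Many edited sites lie in 3′ UTRs, where inverted repeats fold into duplexes. Gla encodes alpha-galactosidase A, the lysosomal hydrolase that removes terminal galactose from glycolipids and whose loss causes Fabry disease. Rragd encodes RagD, a small GTPase that pairs with RagA or RagB on the lysosome and recruits mTORC1 when amino acids are plentiful.

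All 125 sites are annotated as 3′ UTR. The 71 Gla sites lie on the minus strand of chromosome X of the mm9 build, between positions 131123046 and 131123966. They form 3 stretches separated by more than 60 bases, with 32 sites from 131123046 to 131123199, 9 sites from 131123566 to 131123629 and 30 sites from 131123728 to 131123966. The 54 Rragd sites lie on the plus strand of chromosome 4 in 2 stretches, with 31 sites from 33106361 to 33106504 and 23 sites from 33107377 to 33107555. Sites of 1 stretch share reads and are not independent of each other. Positions are given as in the tables, which do not say whether they count from 0 or 1.

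Depth differed more between stretches than between groups. Total coverage summed over sites was 4389326 to 5559674 reads per library. The median over sites and libraries was 2137.5 reads in the first Gla stretch, 380 in the middle and 99 in the last, so levels in the last stretch carry the widest counting error. In Rragd it was 46 reads in the first stretch and 422 in the second. The first Rragd stretch met the read minimum at all of its sites in 1 of the 10 groups only, the untreated p150-knockout cells. The second met it in 9 groups, since the first untreated ADAR1-null library had at most 2 reads over Rragd. Rragd was therefore not tested in comparisons that use the untreated ADAR1-null group. Counting intervals and floors cover counting error only, because PCR reads without molecular identifiers are not independent molecules.

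Both transcripts were edited most in wild-type cells after interferon, at some sites up to more than 70%. The mean level over the 71 Gla sites was 1.63% and 1.06% in the untreated wild-type libraries and 9.87% and 9.75% after interferon, a difference of 8.47 percentage points ± 0.291 (SE, n = 2 and 2). Over the 23 sites of the second Rragd stretch the mean was 1.67% and 1.83% untreated and 17.4% and 15.5% after interferon, a difference of 14.7 points ± 0.944 (SE, n = 2 and 2). Treated and untreated libraries did not overlap for either gene. The means hide a strong concentration: 25 of 71 Gla sites reached 1% and 16 reached 10% after interferon, against 19 and 3 untreated. In Rragd 11 of the 23 sites reached 1% and 8 reached 10%, against 6 and 1 untreated.

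**Figure D1:**
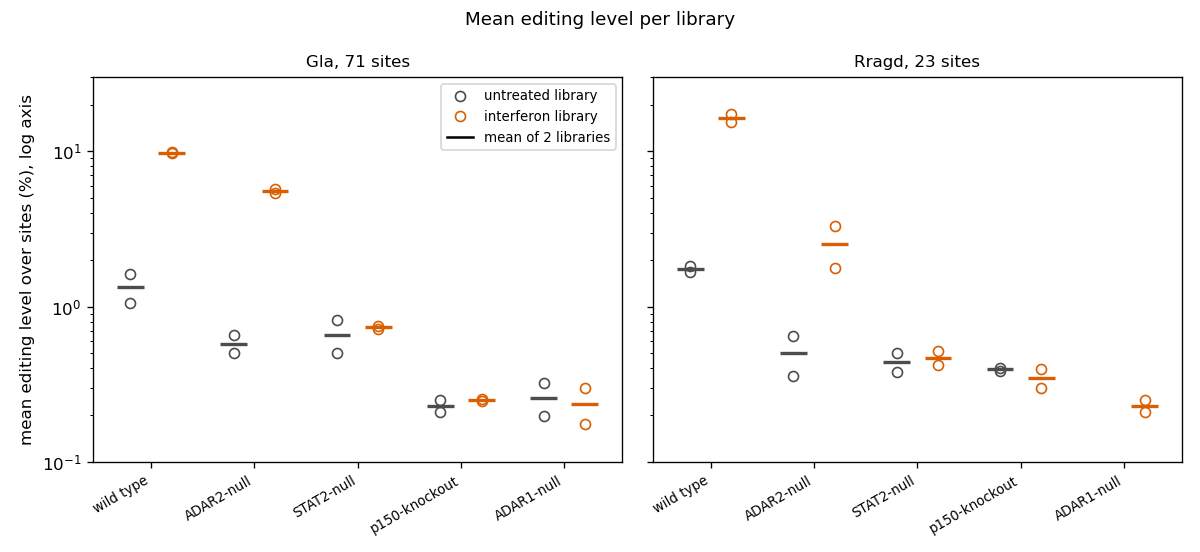
Mean editing level over the 71 Gla sites (left) and the 23 sites of the second Rragd stretch (right) in each library, on a log axis in percent. Open circles are libraries, grey untreated and orange after interferon, and bars are means of 2 libraries. Wild-type interferon libraries are highest for both genes, ADAR2-null interferon libraries follow at 5.37% to 5.72% for Gla and 1.77% to 3.33% for Rragd, and the untreated ADAR1-null group has no Rragd value.

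For Gla, the order over the 10 groups was as follows. The wild-type interferon mean of 9.81% ± 0.0914 (SD, n = 2) was followed by ADAR2-null with interferon at 5.55% ± 0.249 and untreated wild type at 1.34% ± 0.401, with no overlap between neighbours. STAT2-null with interferon (0.736% ± 0.0183) came next, again without overlap. Untreated STAT2-null (0.659% ± 0.222) overlapped with it and with untreated ADAR2-null (0.577% ± 0.107). The lowest 4 groups, untreated ADAR1-null (0.260%), p150-knockout with interferon (0.251%), ADAR1-null with interferon (0.237%) and untreated p150-knockout (0.231%), overlapped with their neighbours and lay below the other 6.

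For Rragd, 9 groups had a value, and the wild-type interferon mean of 16.5% ± 1.33 (SD, n = 2) stood alone. ADAR2-null with interferon (2.55% ± 1.10) and untreated wild type (1.75% ± 0.113) overlapped. Untreated ADAR2-null (0.501% ± 0.204) lay below these, and it overlapped with STAT2-null with interferon (0.470% ± 0.0717), which overlapped in turn with untreated STAT2-null (0.442% ± 0.0883). Untreated p150-knockout (0.394% ± 0.00938) lay within the ranges of untreated STAT2-null and untreated ADAR2-null cells, and it overlapped with p150-knockout with interferon (0.349% ± 0.0672). ADAR1-null cells with interferon had the lowest mean, 0.230% ± 0.0274.

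The 6 Gla sites with the highest level in any group are described one by one. At 131123090 the level was 11.6% and 15.0% in the untreated wild-type libraries and 76.3% and 78.8% after interferon. At 131123085, 5 bases away on the same reads, it was 4.22% and 8.66% untreated and 70.9% and 75.5% after interferon. At 131123831, in the last stretch, it was 3.88% and 0% untreated, from 103 and 128 reads, and 74.2% and 69.4% after interferon, from 190 and 173 reads. These sites reached like levels after interferon from different levels before it.

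The site 131123629, at the end of the middle stretch, had 1.15% and 2.30% untreated and 57.2% and 51.8% after interferon. At 131123182 the untreated libraries had 13.1% and 10.05% and the treated ones 51.9% and 49.1%. At 131123119 they had 5.41% and 7.86% untreated and 45.3% and 40.6% after interferon. All 6 sites were higher in both treated libraries than in both untreated ones. They were picked by their highest level, which lay in treated wild-type cells, so this was largely fixed by the choice. Among all tested members 22 of 27 Gla and 9 of 9 Rragd sites were higher in this way, and 1 Gla site was lower. Of all 1223 sites tested 65.7% were higher. The difference was 69.8 points ± 3.11 (SE) at 131123831 and 36.3 points ± 2.64 at 131123119, with edgeR quasi-likelihood adjusted p of 0.00190 and 0.00862, and the other 4 sites had adjusted p between 6.72e-05 and 0.00862. The calls at 131123119 and 131123182 were lost without the first and without the second untreated wild-type library, with adjusted p of 0.0514 and 0.0617.

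**Figure D2:**
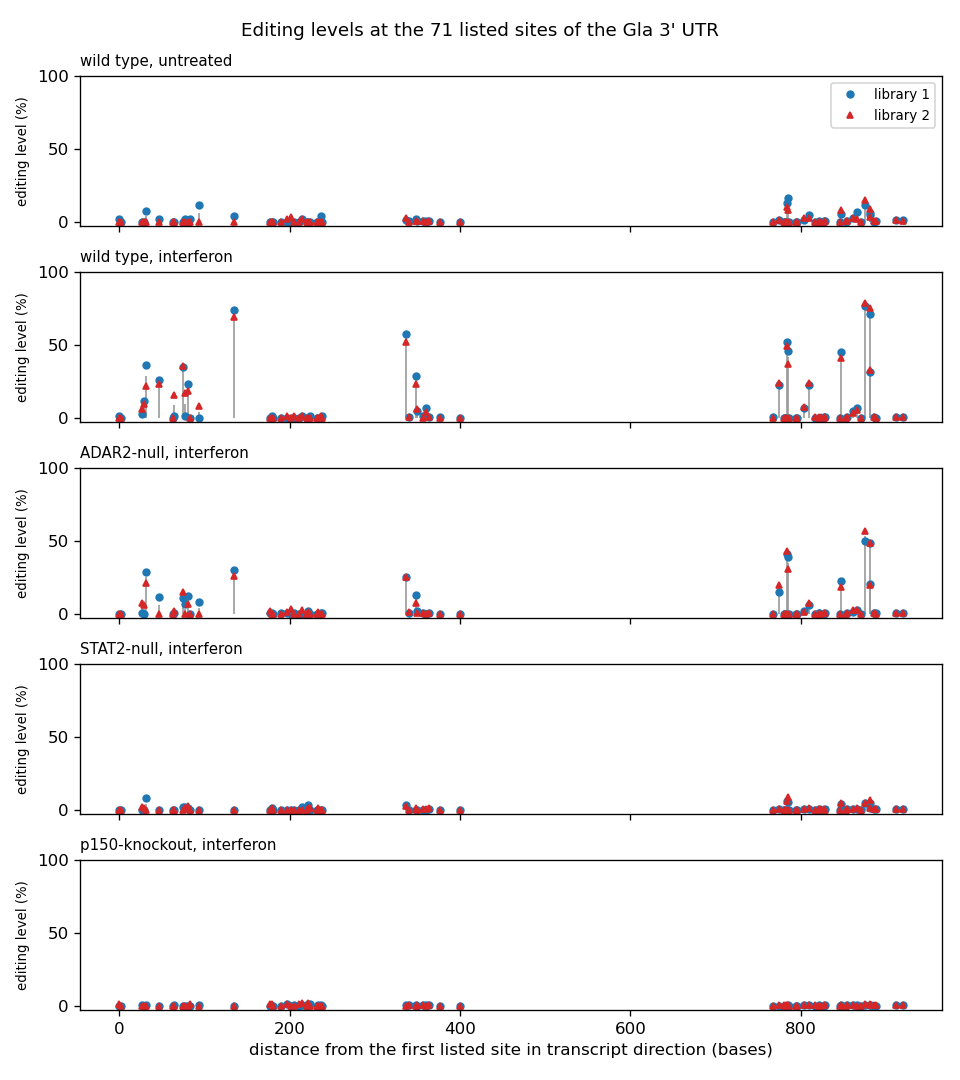
Editing level in percent at the 71 Gla sites against the distance in bases from the first listed site in transcript direction, in 5 groups. Circles and triangles are the 2 libraries and grey lines end at their mean. Peaks after interferon stand at the same sites in wild-type and ADAR2-null cells, up to 78.8% and 56.9% in a library, and levels in STAT2-null and p150-knockout cells stay low.

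In Rragd the highest site was 33107392, with 21.9% and 32.1% in the untreated wild-type libraries and 86.1% and 66.1% after interferon. It was the only Rragd site above 10% without interferon. The difference of 49.1 points ± 11.2 (SE) did not pass the test, with an edgeR quasi-likelihood adjusted p of 0.0661. Its neighbour 33107396 had 5.45% and 2.26% untreated and 69.0% and 52.6% after interferon. The level at 33107381 was 1.19% and 0.206% untreated and 62.8% and 48.6% after interferon. At all 3 sites the first treated library was the higher one.

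The site 33107386 had 0.714% and 1.65% untreated and 58.0% and 49.6% after interferon. At 33107481, farther downstream, the untreated libraries had 0% and 0.414%, from 841 and 966 reads, and the treated ones 41.0% and 46.0%. At 33107414 they had 2.37% and 0% untreated and 28.4% and 30.8% after interferon. Of the 6 sites, 33107392 alone failed the test, and the other 5 rose by 28.4 to 56.9 points with edgeR adjusted p between 0.000245 and 0.00444. None of these 5 calls was lost when 1 library was left out.

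**Figure D3:**
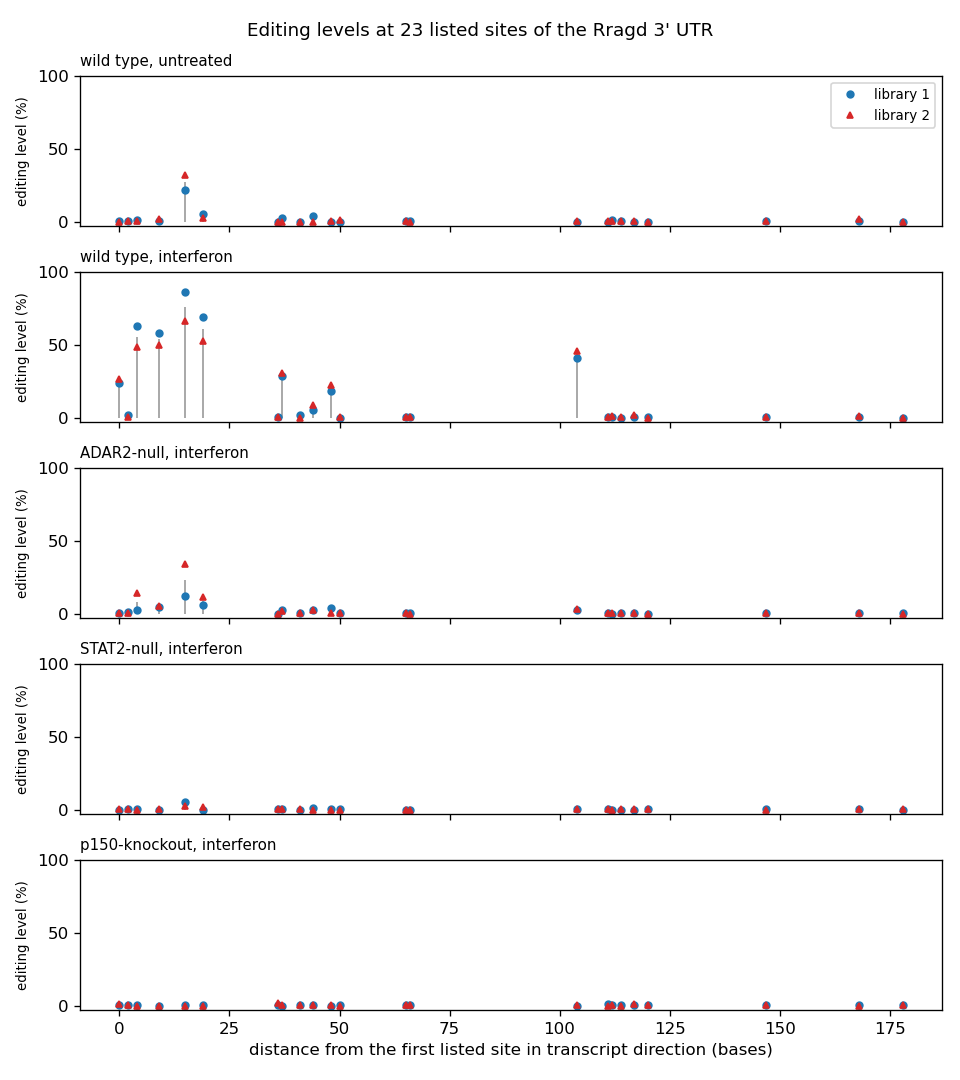
Editing level in percent at the 23 sites of the second Rragd stretch against the distance in bases from the first of them in transcript direction, in 5 groups. Circles and triangles are the 2 libraries and grey lines end at their mean. After interferon the high wild-type sites crowd into the first 50 bases with 1 more site near 104 bases, and ADAR2-null levels at the same sites reach 33.9% in a library.

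Over all sites that could be tested for interferon in wild-type cells, 16 of 27 Gla sites and 7 of 9 Rragd sites rose, and 0 fell. Among all 1223 tested sites 40.4% rose and 0.654% fell. The median difference was 20.8 points over the tested Gla sites, 43.3 over the tested Rragd sites and 5.27 over all. A site entered the test with a mean of at least 1% over the groups compared, so a site high in 1 group alone had to differ: 16 of the 27 Gla and 5 of the 9 Rragd sites reached 1% in both groups. The called differences ran from 4.98 to 69.8 points in Gla and from 20.2 to 56.9 in Rragd. Of these calls, 8 of 16 in Gla and 7 of 7 in Rragd were kept in each of the 4 fits that left out 1 wild-type library. With only the 2 wild-type groups in the fit, 10 of the 36 sites were called in place of 23. Of all 1223 tested sites 109 were then called higher in place of 494.

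Much of both 3′ UTRs was hardly edited in any group. In Gla 38 of 71 sites stayed below 1% in every covered group, and 4 had 0 edited reads in all libraries. In Rragd 30 of 54 sites stayed below 1% and 7 had 0 edited reads, though the first stretch was covered in few groups. All 16 Gla sites that reached 10% in some group had their highest level in wild-type cells with interferon. The same was true of 8 of the 9 such Rragd sites. The remaining one, 33106424, lies in the first stretch, which did not meet the read minimum in wild-type groups, and was chosen here after its values were seen: it had 0 of 149 and 24 of 96 edited reads in the ADAR2-null interferon libraries.

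In ADAR2-null cells Gla editing rose with interferon to a good part of the wild-type level, while Rragd levels ended far lower. The Gla mean went from 0.653% and 0.501% to 5.72% and 5.37%, a difference of 4.97 points ± 0.192 (SE, n = 2 and 2). The Rragd mean went from 0.645% and 0.356% to 1.77% and 3.33%, a difference of 2.05 points ± 0.792. Of the tested sites 15 of 22 in Gla and 5 of 8 in Rragd rose and 0 fell, where 52.2% of all 1145 tested sites rose and 0.0873% fell. Of the tested sites 8 in Gla and 2 in Rragd reached 1% in both groups. All 6 named Gla sites were among those that rose in each of the 4 fits without 1 library, and none of the 5 Rragd calls was kept in all 4. The count of 20 over both genes fell to 11 when library 2 of the untreated ADAR2-null group was left out.

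At Gla 131123090 the ADAR2-null libraries had 4.21% and 1.96% untreated and 50.1% and 56.9% after interferon. At 131123085 they had 7.32% and 2.92% untreated and 48.2% and 48.6% after interferon. At 131123831 and 131123629 no edited read was seen untreated, which allows levels of up to 0.721% and 0.464% (3 reads over the group), and the treated libraries had 30.2% and 25.6%, and 25.2% and 24.9%. These 4 sites rose with edgeR adjusted p between 2.87e-05 and 0.00105. The sites 131123182 and 131123119 also rose, from 7.79% and 5.76% to 41.1% and 42.9%, and from 1.38% and 2.40% to 22.1% and 18.6%.

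The Rragd sites in ADAR2-null cells were low and differed between the 2 interferon libraries. At 33107392 the treated libraries had 12.1% and 33.9%, and the untreated ones 6.44% and 0%. At 33107381 the treated libraries had 2.33% and 14.1%, and at 33107396 they had 6.06% and 11.2%. The other 3 named sites agreed better, with 4.24% and 5.02% at 33107386, 2.58% and 3.20% at 33107481, and 2.80% and 2.05% at 33107414. In the untreated libraries these 5 sites had 0% to 1.37%. All but 33107481 rose, with edgeR adjusted p between 0.00676 and 0.0493, and 33107481 had a difference of 1.82 points ± 0.432 (SE) with an adjusted p of 0.282.

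Set against wild type within interferon, every named site was lower in both ADAR2-null libraries than in both wild-type ones. The named sites were picked by their highest level, which lay in treated wild-type cells, so this was largely fixed by the choice. Among all tested members 19 of 26 Gla and 9 of 9 Rragd sites were lower in this way, as were 33.5% of all 1348 sites tested. At sites of at least 10% in treated wild-type cells, the ADAR2-null level was a median 0.467 of the wild-type level over 16 Gla sites and 0.0974 over 8 Rragd sites. Over all 472 such sites of the table the median was 0.651. Of 77 genes with at least 2 such sites, 26 had a lower median than Gla and 5 a lower median than Rragd. In Gla the ratio ran from 0.239 at 131123920 to 0.865 at 131123935, and in Rragd from 0.0136 at 33107377 to 0.303 at 33107392, where 131123920, 131123935 and 33107377 were chosen after their values were seen. Averaged over these sites the Gla level was 41.1% and 38.3% in wild type and 23.3% and 22.0% in ADAR2-null, and the Rragd level 48.5% and 42.8% against 4.26% and 8.83%.

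**Figure D4:**
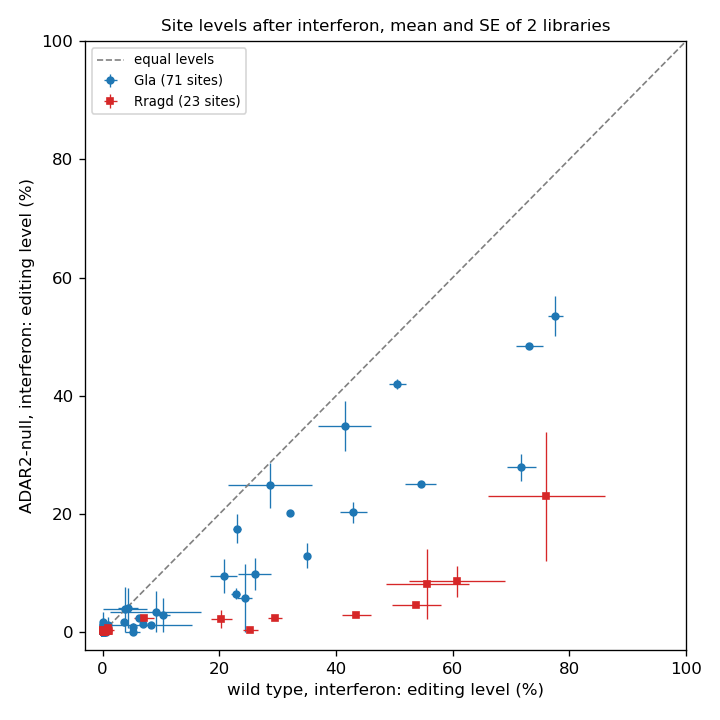
Editing level after interferon in ADAR2-null cells (y axis, percent) against wild-type cells (x axis, percent) for 71 Gla sites (circles) and 23 Rragd sites (squares). Points are means and bars are SE over 2 libraries, and the dashed line marks equal levels. The Rragd sites lie much farther below the line than most Gla sites, with ratios of 0.0136 to 0.303 at those of at least 10% in wild type.

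Few of these gaps between ADAR2-null and wild type passed the test. Of the tested sites 1 of 26 in Gla and 2 of 9 in Rragd were called lower and 0 higher, where 1.56% of all 1348 tested sites were called lower and 0.445% higher. The Rragd sites were 33107377, at 25.3% ± 1.81 (SD) in wild type and 0.345% ± 0.158 in ADAR2-null cells, and 33107481, at 43.5% ± 3.56 and 2.89% ± 0.444, with edgeR adjusted p of 0.0137 and 0.0477. The Gla site was 131123606, at 5.21% ± 1.82 against 0% ± 0, with an adjusted p of 0.0477. Of the tested sites 23 of 26 in Gla and 8 of 9 in Rragd reached 1% in both groups. The called sites 33107377 and 131123606 did not. They passed the filter through the wild-type level, so their direction was largely fixed by it. These 3 sites are named because the count is small, and 33107377 and 131123606 were chosen after their values were seen. None of the 3 calls held in every fit without 1 library: 0 sites were called without either ADAR2-null interferon library and 1 without the second wild-type one. An unadjusted edgeR p under 0.05 was reached at 14 of the 35 sites and at 196 of all 1348 tested sites.

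The size of the interferon response was not shown to differ between ADAR2-null and wild-type cells. The test compares changes in the odds of editing, and 0 of 26 Gla and 0 of 9 Rragd sites passed it, with 0 called by limma. Of all 1146 tested sites 0.175% passed. An unadjusted edgeR p under 0.05 was reached at 5 members and at 121 of the 1146 sites. At Rragd 33107396 the log2 odds rose by 5.39 in wild type and 5.80 in ADAR2-null cells, although the rise in level was 56.9 points ± 8.40 (SE) against 8.47 points ± 2.55. At Gla 131123090 the log2 odds rose by 4.51 and 5.27. At Rragd 33107481 the log2 odds rose by 8.55 in wild type and differed by 1.47 in ADAR2-null cells. The edgeR adjusted p for the difference was 0.149. With no minimum level for entry, 33107481 was the 1 member called, with a smaller response in ADAR2-null cells. Without interferon 2 of 15 Gla sites were lower in ADAR2-null than in wild-type cells and 0 of 3 Rragd sites were called, where 12.9% of 588 sites were called lower. The Gla share is near that of all sites. Of these sites 8 in Gla and 1 in Rragd reached 1% in both groups. The Gla calls were 131123090, at 3.08% ± 1.59 (SD) against 13.3% ± 2.40, and 131123100, chosen after its values were seen, at 0.176% ± 0.0224 against 4.23% ± 3.41. The site 131123100 passed the filter through the wild-type level, so its direction was largely fixed by it. Neither call was kept in all fits without 1 library, and 0 sites were called without the first untreated wild-type or the second untreated ADAR2-null library and 1 without the second untreated wild-type library.

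In STAT2-null cells no tested site of either gene was called for interferon. The Gla mean was 0.502% and 0.816% untreated and 0.748% and 0.723% after interferon, and the Rragd mean was 0.379% and 0.504% against 0.521% and 0.419%, so that the groups overlapped for both genes. Of 12 tested Gla and 4 tested Rragd sites 0 were called by edgeR or limma and 0 had an unadjusted p under 0.05. Of all 658 tested sites 0 were called (0.0%) by edgeR and 0 by limma, and 19 had an unadjusted p under 0.05 with edgeR. Editing was still measurable: at Gla 131123182 the untreated libraries had 5.601% and 8.12% and the treated ones 5.94% and 5.82%, and at 131123090 they had 1.99% and 3.09%, and 4.75% and 4.40%. At Rragd 33107392 they had 0.484% and 4.99% untreated and 5.54% and 2.86% after interferon.

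Against wild type the STAT2-null cells differed after interferon. Of the tested sites 18 of 25 in Gla and 9 of 9 in Rragd were lower and 0 higher, where 39.8% of all 1217 tested sites were lower and 1.15% higher. Of these sites 11 in Gla and 1 in Rragd reached 1% in both groups, and the others passed the filter through the wild-type level, so their direction was largely fixed by it. At Gla 131123090 the level was 4.57% ± 0.250 (SD) against 77.6% ± 1.77, with an edgeR adjusted p of 1.91e-05. At Rragd 33107392 it was 4.20% ± 1.90 against 76.1% ± 14.1, with an adjusted p of 0.00250. All 12 named sites were lower in STAT2-null cells in every fit without 1 library. Without interferon 1 of 16 Gla sites and 0 of 2 Rragd sites were called lower, where 1.71% of 643 sites were. That site was 131123090, at 2.54% ± 0.777 against 13.3% ± 2.40 with an adjusted p of 0.0466, and it was lost when any 1 of the 4 libraries was left out, with adjusted p of up to 0.307.

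In p150-knockout cells the mean level of both genes lay near that of cells without ADAR1. The Gla mean was 0.252% and 0.209% untreated and 0.247% and 0.256% after interferon, against 0.198% and 0.322%, and 0.299% and 0.175%, in ADAR1-null cells. The Rragd mean was 0.388% and 0.401% untreated and 0.301% and 0.396% after interferon in p150-knockout cells, and 0.249% and 0.211% in treated ADAR1-null cells. At the 12 named sites no p150-knockout library exceeded 2.13%, at Rragd 33107392 untreated, and no ADAR1-null library exceeded 1.46%, at Gla 131123831 from 137 reads. Interferon could be tested at 1 Gla site in p150-knockout and 2 in ADAR1-null cells, and 0 were called or had an unadjusted p under 0.05 with edgeR, and 0 were called by limma. Of all tested sites 1.65% of 243 and 0.0% of 114 were called. The other covered members averaged below the 1% minimum over both groups and were not tested.

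Between p150-knockout and ADAR1-null cells 3 Gla sites could be tested in each treatment and 0 were called by edgeR or limma, with 1 untreated site at an unadjusted edgeR p under 0.05. Of all tested sites 11.8% of 152 untreated and 7.11% of 197 with interferon were called, and 34 of the 152 had an unadjusted edgeR p under 0.05. No Rragd site met the filters in either comparison.

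After interferon both lines differed from wild type over nearly all tested sites. In p150-knockout cells 22 of 26 Gla and 9 of 9 Rragd sites were lower and 0 higher, where 63.9% of all 1039 tested sites were lower and 0.577% higher. In ADAR1-null cells 22 of 25 and 9 of 9 were lower and 0 higher, where 69.5% of all 1159 were lower and 0.0% higher. At Gla 131123090 the level was 0.668% ± 0.443 (SD) in p150-knockout and 0.296% ± 0.107 in ADAR1-null cells, with edgeR adjusted p of 8.10e-08 and 5.11e-08 against wild type. At Rragd 33107392 it was 0.0887% ± 0.125 and 0.137% ± 0.194, with adjusted p of 2.95e-05 and 5.60e-05. The 12 named sites were lower in both lines in every fit without 1 library. The filter let nearly all of these sites in through the wild-type level: 1 Gla site in ADAR1-null and 0 in p150-knockout cells reached 1% in both groups.

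Without interferon, some Gla sites were also called lower in these lines than in wild type. Of 15 tested Gla sites 9 were lower in p150-knockout and 8 in ADAR1-null cells, and 1 of 2 Rragd sites was lower in p150-knockout cells, where 32.5% of all 517 and 49.0% of all 386 tested sites were lower. The ADAR1-null share is near that of all sites. In each line 2 of the 15 Gla sites reached 1% in both groups, and the others passed the filter through wild type. At Gla 131123090 the difference was -12.8 points ± 1.70 (SE) in p150-knockout and -12.7 points ± 1.70 in ADAR1-null cells, with edgeR adjusted p of 0.000124 and 3.99e-05. The Rragd site was 33107392, at 1.36% ± 1.09 (SD) in p150-knockout cells against 27.0% ± 7.24, with an adjusted p of 0.0230 that was lost in 3 of 4 fits without 1 library. Over both genes the p150-knockout count of 10 was 5 or 4 when library 1 or library 2 of the untreated p150-knockout group was left out. The ADAR1-null count of 8 was 5 without the first untreated wild-type library.

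The responses of the 3 lines without a rise were tested against that of wild type. A smaller response was called at 7 of 25 Gla sites in ADAR1-null cells, at 9 of 26 Gla and 6 of 9 Rragd sites in p150-knockout cells, and at 7 of 26 Gla and 3 of 9 Rragd sites in STAT2-null cells, and no larger one was called. Of all tested sites 12.2% of 754, 17.0% of 839 and 13.7% of 1026 had a smaller response and 0.133%, 0.119% and 0.0975% a larger one. Few of these members reached 1% in every group compared: 1 of 25 Gla sites for ADAR1-null, 0 of 26 Gla and 0 of 9 Rragd sites for p150-knockout, and 8 of 26 and 1 of 9 for STAT2-null cells. The others entered through the groups where they are high, so these counts describe the members and are not support for them. At Gla 131123085 the difference in response from wild type was -66.7 points ± 3.20 (SE) in ADAR1-null, -66.9 ± 3.21 in p150-knockout and -64.7 ± 3.38 in STAT2-null cells. Sites with no edited read in both groups of a line have no odds there and were not called, as at Gla 131123831 in STAT2-null cells.

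Those counts moved with single libraries. For ADAR1-null cells the count of 7 was 4 without either treated ADAR1-null library, and 3 without the second untreated ADAR1-null or the second untreated wild-type library. For p150-knockout cells the count of 15 was 9 without the second untreated wild-type library, 7 without the first treated p150-knockout library, and 6 and 8 without the first and second untreated ones. For STAT2-null cells the count of 10 was 6 without the first untreated wild-type library, 4 without either treated STAT2-null library and 3 without the second untreated one.

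The order of sites within a gene was much alike in wild-type and ADAR2-null cells after interferon. Over the 29 Gla sites of at least 1% in either group Pearson's r was 0.925 and Spearman's rho 0.895, and over 11 Rragd sites they were 0.801 and 0.955. These are descriptions across sites that share amplicons and libraries, not across replicates. The order in untreated cells was less like that after interferon, with r of 0.585 and rho of 0.386 over 28 Gla sites of wild-type cells. The site 131123181, chosen after its values were seen, had the highest mean Gla level in untreated STAT2-null (9.23% ± 2.82, SD) and ADAR2-null cells (7.34% ± 2.36). In untreated wild-type cells it had 12.1% ± 6.05 against 13.3% ± 2.40 at 131123090, and their libraries overlapped.

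Other genes of the tables followed the 2 genes across libraries. For each gene with at least 2 sites of at least 50 reads in every library used and a mean of at least 1%, the mean level per library was correlated with that of Gla or Rragd. Over 20 libraries and 77 genes the highest Pearson correlations with Gla were those of Taok1 (0.9975), Dtx3l (0.995) and Nras (0.992), and the median gene had 0.916. Over 18 libraries and 99 genes the highest with Rragd were 4933404O12Rik (0.985), Mgat4a (0.975) and Iqgap1 (0.960), the median was 0.760, and Gla ranked 10 with 0.918. Libraries of 1 group share cells and treatment, so these are descriptions over points that are not independent.

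Few other genes of the lysosome could be read. Of 42 other genes for lysosomal hydrolases and their activators 14 are listed in the tables, and of 23 genes for lysosomal membrane, sorting, acidification and biogenesis proteins 12 are listed, but 0 had a site with enough reads. Of 38 other genes of the Rag GTPases and amino acid sensing to mTORC1, 12 are listed and 1 had covered sites. This was Depdc5, a subunit of the GATOR1 complex that acts on RagA and RagB, with 43 of 57 sites covered. At most 3 Depdc5 sites met the filters in any comparison, and 0 were called by edgeR or limma or had an unadjusted p under 0.05 with edgeR. None met them in a comparison that used treated wild-type cells, so the response of Depdc5 in wild type was not tested. Its highest level over these 43 sites was 31.8% in treated and 1.62% in untreated wild-type cells. These levels were taken without a read minimum in the wild-type libraries and may come from different sites. They may rest on few reads and do not measure a response. Of 8 fibroblast markers 1 is listed and 0 were covered, and the assay gives no expression level, so neither the cell type nor the loss of the targeted genes was checked.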

How the data were processed

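Per the file headers, the deposited tables give, for each known site, the coverage and the edited reads as counts and the level as a fraction. This deposited fraction matched edited reads over coverage within 0.0005 at 195328 checked values, and levels were recomputed from the counts as percentages. Reads were aligned with BWA and processed with SAMtools on mm9, per the submitters' processing notes, with versions and filters not given in the sources used here. Libraries were indexed in 15 cycles of PCR, per the labels' protocols. The design text names 6 lines and 557 loci, and 1 line was not analysed here.

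For each comparison, edited and unedited counts of the sites that entered its test were fitted together with edgeR 4.0.16 in R 4.3.3 (glmQLFit, glmQLFTest). Each fit had 1 coefficient per library and per group over all 20 libraries. Sites entered a test if each library compared had 50 reads or more there and the level averaged 1% or more over those libraries. Tests were two-sided, adjusted by Benjamini-Hochberg over all sites tested and called under 0.05. Alternatives were minima of 20 and 100 reads, no minimum level, limma 3.58.1 on log2 odds with 0.5 added, a fit of the compared groups alone, a replicate block and each library left out. The tests were tested on simulated data. Named sites were, per gene, the 6 with the highest level in any group, plus any called opposite to the rest (0 were). The members and the gene lists were chosen with earlier results of these data known. Separate cultures are not named in the labels, and p-values therefore reflect the spread between libraries, which may be technical. Chi-square per degree of freedom between the libraries of a group was above counting noise throughout, and all libraries were kept. It was highest in wild type, 20.2 with interferon and 11.5 untreated, and 3.21 to 9.32 in the other groups. The spread in each fit was drawn from all 20 libraries, so tests against wild type also used groups that varied less. Figures were drawn with matplotlib 3.10.9 and tables made with pandas 2.3.3 in Python 3.11.15. No sequence is shown, as no mm9 genome was used here.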

Additional observations from a re-analysis of the deposited data

Results flagged for a closer look

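The difference between the interferon response of a line and that of wild-type cells was tested with edgeR's quasi-likelihood test on the odds of editing. It passed at 7 of 25 sites in ADAR1-null, 15 of 35 in p150-knockout and 10 of 35 in STAT2-null cells. Of all tested sites 12.2%, 17.0% and 13.7% had a smaller response. Few of these members reached 1% in every group compared, and the others entered through the groups where they are high. Some of the calls were lost when 1 library was left out. Among named sites the response, interferon minus untreated, minus that of wild type in percentage points, was as follows where the test was passed. In ADAR1-null cells it was -66.7 at Gla 131123085, -64.6 at 131123090, -39.2 at 131123182 and -70.6 at 131123831. In p150-knockout cells it was -66.9 at Gla 131123085, -64.1 at 131123090, -39.3 at 131123182, -52.9 at 131123629 and -70.3 at 131123831. In the same cells it was -55.6 at Rragd 33107381, -53.1 at 33107386, -57.3 at 33107396, -28.7 at 33107414 and -43.4 at 33107481. In STAT2-null cells it was -64.7 at Gla 131123085, -62.3 at 131123090 and -51.4 at 131123629, and -55.6 at Rragd 33107381 and -42.9 at 33107481.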

How the results depend on the processing

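No call on a named site changed direction under any alternative. Counts are over both genes. With only the compared groups in the fit, the wild-type interferon count was 10, p150-knockout against untreated wild type 6, ADAR2-null against wild type 0 untreated and 0 with interferon, STAT2-null against untreated wild type 0, and the smaller responses 2 (ADAR1-null), 4 (p150-knockout) and 5 (STAT2-null). With no minimum level the counts were 13 for interferon in ADAR2-null cells, 1 and 7 for ADAR2-null against wild type untreated and with interferon, 0 for STAT2-null against untreated wild type, and 3, 5 and 1 for the responses of ADAR1-null, p150-knockout and ADAR2-null cells. With limma they were 0 for STAT2-null against untreated wild type, 1 for ADAR2-null against wild type with interferon, and 12 and 16 for the responses of ADAR1-null and STAT2-null cells. A minimum of 20 reads gave 0 for STAT2-null against untreated wild type. The Gla response was 11.2 points in wild type, 6.73 in ADAR2-null and -0.0258 in p150-knockout cells (0.0208 before) with a minimum of 100 reads, and 10.1 and 6.66 in wild type and ADAR2-null cells from edited reads over all reads.

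Leaving out 1 library gave, for interferon against untreated, 17 to 23 calls in wild type and 11 to 14 in ADAR2-null cells. Against untreated wild type it gave 5 to 9 for ADAR1-null, 4 to 9 for p150-knockout, 0 to 3 for ADAR2-null and 0 to 0 for STAT2-null cells, and with interferon 0 to 2 for ADAR2-null cells. For responses it gave 3 to 7 (ADAR1-null), 6 to 14 (p150-knockout) and 3 to 10 (STAT2-null). Deviations of same-numbered libraries of a line from their group means correlated between -0.146 and 0.145 over 604 sites. Over all 45 pairs of groups the range was -0.161 to 0.145. No pairing by number was seen, but with 2 libraries per group this cannot tell whether same-numbered libraries share a culture or batch. With the replicate block, ADAR2-null against wild type with interferon gave 1 and STAT2-null against untreated wild type 0, and the other counts stayed within 1.5 times. The 99 reads per site in the last Gla stretch and 46 in the first Rragd stretch limit what could be tested there.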

Other observations

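Coverage was not even within a stretch. Sites in the inner part of the first Gla stretch, from 131123084 to 131123162, had a median of 2507 reads against 1258 at its other sites, a ratio of 1.99. The ratio was 1.99 in the second Rragd stretch, from 33107442 to 33107488, and 2.0 in the first. In these inner parts edited counts above 0 were mostly even numbers in Rragd, 78.7% of 61 in the first stretch and 78.6% of 56 in the second, against 25% of 16 and 35.5% of 256 at the other sites. In the first Gla stretch 49.7% of 316 and 53.1% of 147 were even. The tables do not say whether both mates of a read pair were counted, and the part of this in the levels was not tested. The named sites inside these parts are Gla 131123085, 131123090 and 131123119, and Rragd 33107481. Gla 131123831 is the one site of the last stretch with such a doubled count, 194.5 against 100 reads. Of its edited counts above 0, 85.7% of 7 were even, against 25.3% of 154 at the other sites of that stretch. At the doubled site of the middle stretch, 131123566, 0% of 2 were even, against 31.6% of 95. Read counts and floors given for 131123831 use the counts as listed.

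In the first Rragd stretch the ADAR2-null interferon libraries differed from each other. Besides 33106424, the level at 33106395 was 2.68% in the first and 16.7% in the second library, and at 33106420 it was 1.34% and 8.33%, from 149 and 96 reads. The second library was also the higher one at 33107381, 33107392 and 33107396. No test was made of these differences between 2 libraries of 1 group.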
